A study of Oryza sativa Japonica Group with 6 samples.

Results

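The genes described are 10 rice genes that make and exchange glutamine, glutamate, asparagine and alanine, the amino acids that carry most of the nitrogen a growing seed receives and uses. They were taken by gene ID, with earlier results of these data known, as 10 of the 93655 features in the deposited table, and all 10 were present. They comprise 4 glutamine synthetase genes (GS1;1 OS02G0735200, GS1;2 OS03G0223400, GS1;3 OS03G0712800 and GS2 OS04G0659100) and 3 glutamate synthase genes (NADH-GOGAT1 OS01G0681900, NADH-GOGAT2 OS05G0555600 and Fd-GOGAT OS07G0658400). The others are the asparagine synthetase genes AS1 (OS03G0291500) and AS2 (OS06G0265000) and the alanine aminotransferase gene AlaAT1 (OS10G0390500). For 6 of the 10, a gene of that name lies at the place the ID gives in a RefSeq gene table, and the names of NADH-GOGAT1, AS1, AS2 and AlaAT1 were not found there and rest on the ID lists used for the choice.

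RNA was sequenced from endosperm, the storage tissue of the grain, of rice plants of the japonica cultivar ZH11, taken 7 days after pollination. The labels give 3 libraries as wild type (WT) and 3 as nf-yc11, a mutant whose name refers to NF-YC, one of the subunit types of the NF-Y transcription factor, and give no other treatment or allele. The labels do not name the altered locus, the kind of mutation or the number of lines, and leave unsaid whether each replicate is a separate plant. The p-values therefore reflect the spread among libraries alone, and that spread may be technical. The question set by the design text is how mRNA levels differ between the mutant and WT.

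Glutamine synthetase joins ammonium to glutamate, and glutamate synthase (GOGAT) then passes the amide group of glutamine to a carbon skeleton. The pair forms the cycle through which plants build ammonium into amino acids. Cereal GS1 isoforms are cytosolic, whereas GS2 and Fd-GOGAT are plastid enzymes best known from green leaves, where they take back the ammonium freed in photorespiration. Asparagine synthetase moves the amide of glutamine on to aspartate, and alanine aminotransferase exchanges an amino group between glutamate and alanine. In developing grains, incoming glutamine and asparagine feed the synthesis of storage proteins. GS1;3 has been reported as a target of NF-YC12, an NF-YC subunit.

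Values are FPKM, the reads of a gene relative to its length and to the total of its library, and the totals behind them, computed back from the values, were 14593215 to 21984785 reads. The endosperm label was checked on 6 markers, all present, whose summed level ran from 45448 to 46603 FPKM in WT and from 34711 to 36563 FPKM in the libraries labelled nf-yc11. RP10, at 28327 FPKM on average in WT, and GluA1, at 15725 FPKM, made up most of that sum. Of the 6, 5 were called lower and RPBF was not called, beside 19.3% lower over all tested features. The largest falls were those of NF-YB1 (log2 change, nf-yc11 minus WT, -0.87 ± 0.03 SE) and GBSSI (-0.81 ± 0.04 SE). Genes listed as markers of other seed parts were present too. For 4 listed for embryo the sum was 4191 to 4535 FPKM in WT and 4854 to 5262 FPKM in nf-yc11, and none was at 0. The oleosin genes OLE16 and OLE18 made up nearly all of that sum, and how far they mark embryo alone was not tested. The 4 genes did not move together. OLE16 was higher (2025 ± 13.4 and 2583 ± 118 FPKM, SD, n = 3), and OLE18 was not called (2302 ± 158 and 2442 ± 84.8 FPKM). VP1, a regulator of seed maturation, was lower (43.0 ± 1.20 and 33.3 ± 5.18 FPKM). The shoot meristem gene OSH1 was under the filter used for testing at 0.805 ± 0.257 and 0.939 ± 0.343 FPKM. The aleurone marker RAB21 was called lower, at 252 ± 5.60 and 227 ± 1.24 FPKM (log2 change -0.15 ± 0.03 SE). Their part in the results below was not tested, and in bulk tissue fewer cells of a type and less RNA per cell cannot be told apart. As a check of the mutant label, the feature listed as NF-YC11 (OS05G0304800) was at 125, 124 and 130 FPKM in WT replicates 1 to 3 and at 106, 111 and 112 FPKM in nf-yc11 replicates 1 to 3. The feature listed as NF-YC12 (OS10G0191900) was at 741, 762 and 762 FPKM in WT and at 191, 192 and 194 FPKM in nf-yc11. The NF-YC11 feature was thus still present, with a log2 change of -0.20 ± 0.04 SE, whereas the NF-YC12 feature fell far more, with a log2 change of -1.97 ± 0.02 SE. Neither ID was located by name in the RefSeq table, and which NF-YC gene was altered cannot be told from the labels, so the mutant libraries are called by their label.

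Of the 10 genes, 7 had lower levels under the nf-yc11 label than in WT, 1 (NADH-GOGAT1) was higher, and 2 (GS1;1 and NADH-GOGAT2) were not called. A gene was called at an adjusted p under 0.05 in limma, fitted to log2(FPKM + 1) over every feature averaging 1 FPKM or more, and adjusted by the Benjamini-Hochberg method. All 10 genes passed this filter. Across the 22093 features tested, 49.1% were called in either direction, 19.3% lower and 29.8% higher. Calls were more frequent among more abundant features: at a mean of at least 5 FPKM, 8320 of 13548 were called, 3136 lower and 5184 higher. At that filter 8 of the 9 genes tested were called. The 8 genes that were called were also those whose groups of libraries did not overlap, which held for 59.7% of tested features, 24.4% lower and 35.3% higher. The median log2 change of the 10 genes was -0.36, beside 0.06 over all tested features. A call for a single gene was therefore common in these data.

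**Figure D1:**
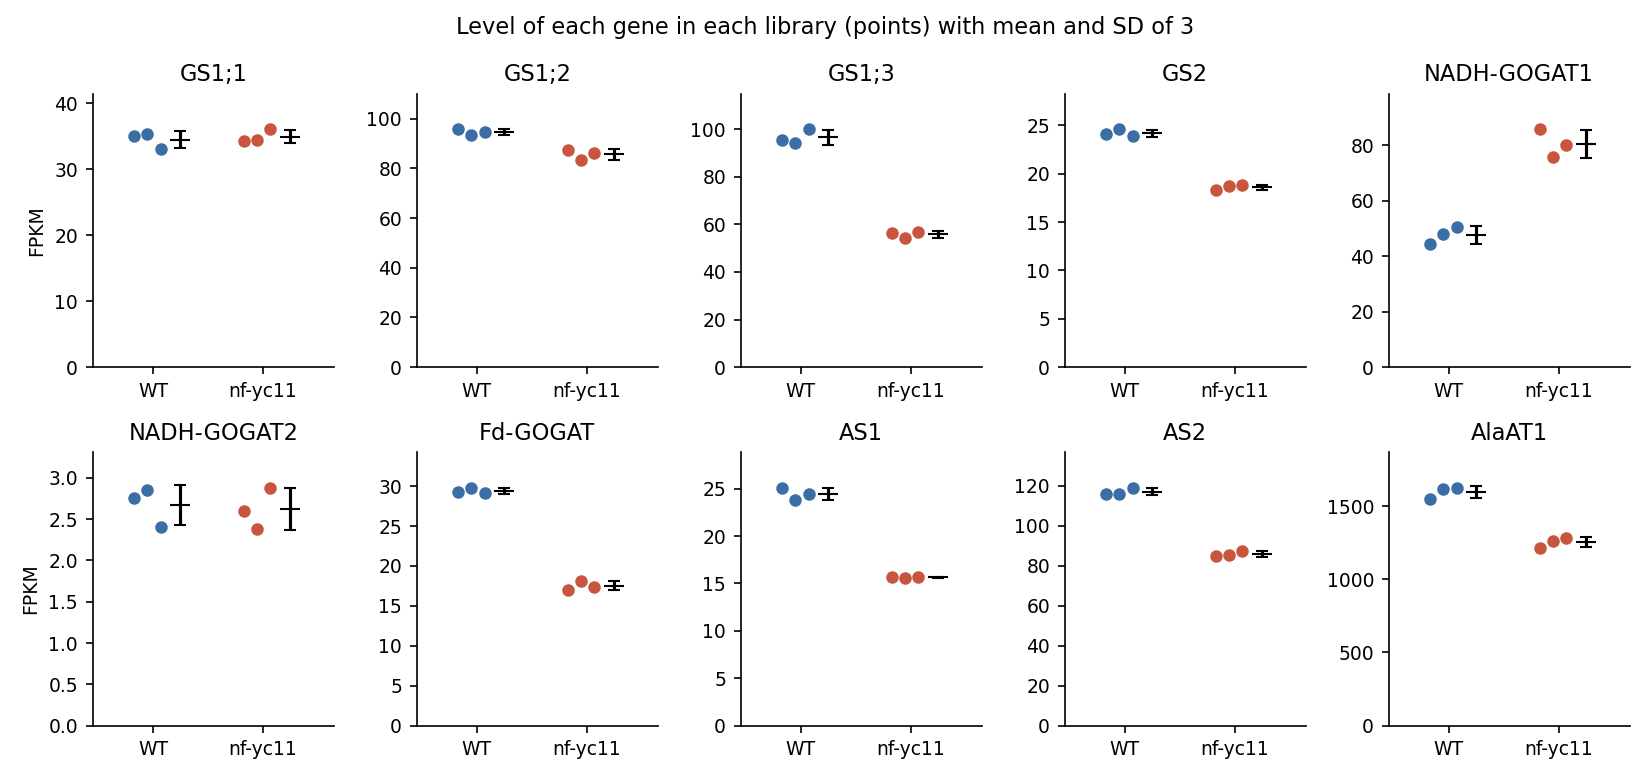
FPKM (vertical axis, from 0) of each of the 10 genes in the 3 WT libraries (blue) and the 3 libraries labelled nf-yc11 (red); black marks are the mean and SD of 3. The groups stand apart for 8 genes and overlap for GS1;1 and NADH-GOGAT2, and NADH-GOGAT1 is the gene with the nf-yc11 libraries on top.

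The glutamine synthetases differed among themselves. GS1;3, the cytosolic isoform known in rice mainly from spikelets, was at 95.5, 94.1 and 100 FPKM in WT replicates 1 to 3 and at 56.4, 54.2 and 56.9 FPKM in nf-yc11 replicates 1 to 3. Every WT library was far above every nf-yc11 library, and the spread within a group was small beside the gap. The mean fell 1.73-fold, from 96.6 ± 3.25 to 55.9 ± 1.47 FPKM (SD, n = 3), with a log2 change of -0.78 ± 0.04 SE (adjusted p = 2.18e-05, limma). This was the largest fall among the 10 genes, and 4.48% of all tested features had a lower log2 change. It rested on 2188 to 3138 reads per WT library and 1292 to 1446 per nf-yc11 library.

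GS1;2, the isoform known for ammonium assimilation in roots, was at 95.8, 93.4 and 94.6 FPKM in WT and at 87.6, 83.4 and 86.2 FPKM in nf-yc11. The groups did not overlap, but the gap was narrow. The fall was 1.10-fold (log2 change -0.14 ± 0.03 SE, adjusted p = 0.0109, limma), and it was larger with other scalings between libraries, at -0.21 with median-of-ratios size factors, -0.25 with totals that leave out the 100 most abundant features and -0.27 with quantile normalization. GS1;1, which in rice leaves is known for nitrogen remobilisation and grain filling, was at 35.1, 35.4 and 33.1 FPKM in WT and at 34.3, 34.5 and 36.1 FPKM in nf-yc11. The groups overlapped, and the log2 change of 0.02 ± 0.04 SE did not pass (adjusted p = 0.744, limma). Its sign turned with the scaling, to -0.05, -0.08 and -0.09 with size factors, with the 100 most abundant features left out of the totals and with quantile normalization.

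GS2, the plastid isoform, was at 24.1, 24.6 and 23.9 FPKM in WT and at 18.3, 18.7 and 18.8 FPKM in nf-yc11. The highest nf-yc11 library lay well below the lowest WT library. The fall was 1.30-fold (log2 change -0.36 ± 0.04 SE, adjusted p = 0.000476, limma).

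Summed over the 4 genes, glutamine synthetase transcripts stood at 251, 247 and 252 FPKM in WT and at 197, 191 and 198 FPKM in nf-yc11. The sum was 1.28-fold lower, with no overlap between groups. GS1;3 made up 38.1%, 38.0% and 39.8% of it in the WT libraries and 28.7%, 28.4% and 28.7% in the nf-yc11 libraries. Its mean share was thus 38.6% ± 1.01 for WT and 28.6% ± 0.192 for nf-yc11, and the groups did not overlap (exact permutation test of 3 against 3 libraries, two-sided, p = 0.1, the smallest this design allows). Shares within a library do not depend on the scaling between libraries. GS1;2 went from 37.8% ± 0.371 to 43.9% ± 0.541 of the sum and GS1;1 from 13.8% ± 0.597 to 17.9% ± 0.407, in both cases with no overlap. GS2 held 9.69% ± 0.219 and 9.54% ± 0.256 of the sum, and here the groups overlapped. In each WT library GS1;3 and GS1;2 were near parity, with ratios of 0.996, 1.01 and 1.06. In the nf-yc11 libraries the ratio of GS1;3 to GS1;2 was 0.644, 0.650 and 0.660. How the authors' counting treated reads that fit more than one of these similar genes is not stated in the material used here, and the split among GS1 isoforms carries that uncertainty.

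**Figure D2:**
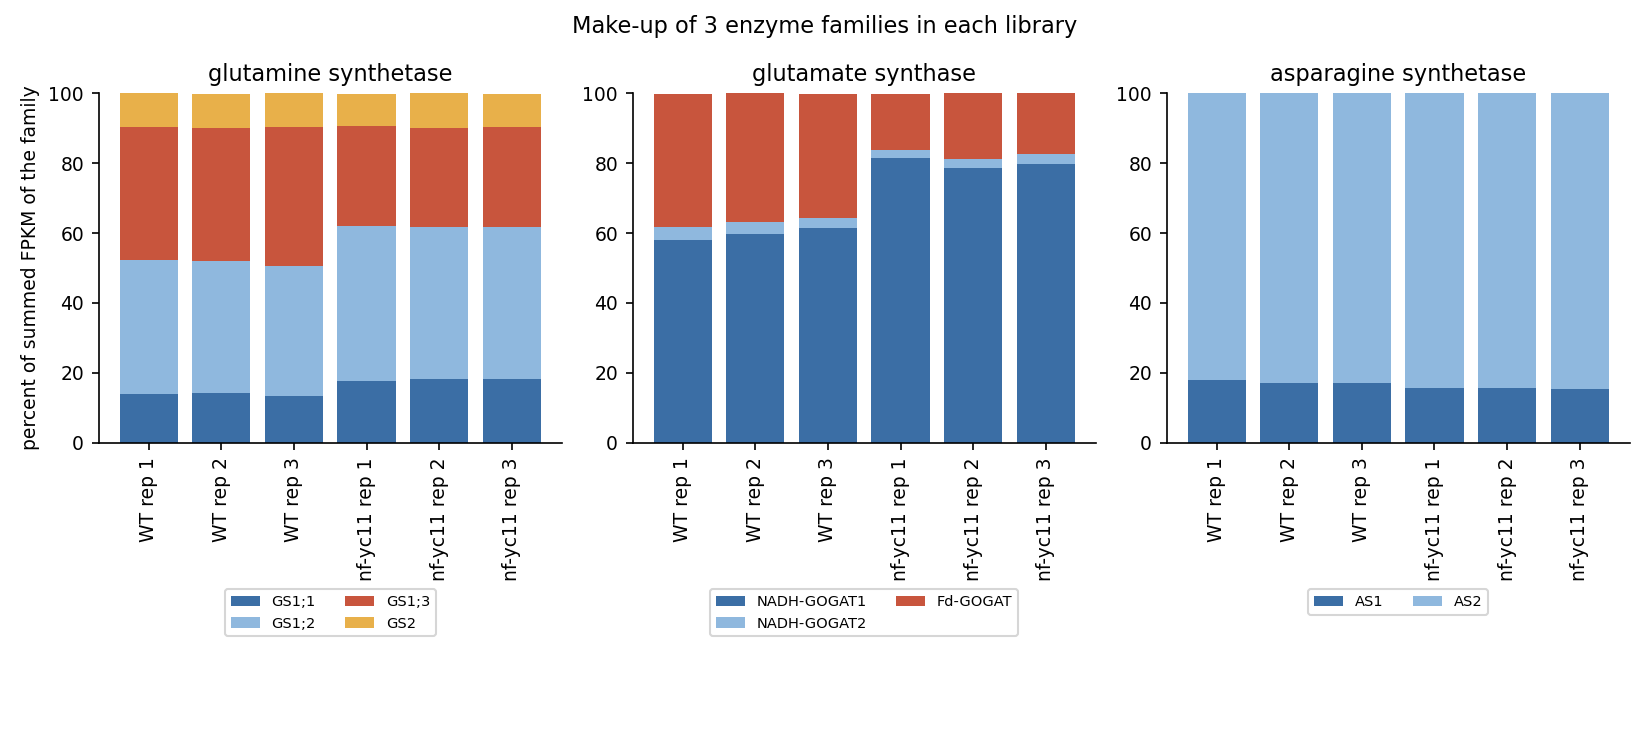
Share of each gene (percent of the summed FPKM of its family, vertical axis) in each of the 6 libraries, for glutamine synthetases, glutamate synthases and asparagine synthetases. GS1;3 takes 28.4% to 28.7% in the nf-yc11 libraries against 38.0% to 39.8% in WT, and the glutamate synthase bars show a larger NADH-GOGAT1 and a smaller Fd-GOGAT share.

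Among the glutamate synthases, NADH-GOGAT1 rose and Fd-GOGAT fell. NADH-GOGAT1, the NADH-dependent enzyme known in rice from developing organs, including young grains, was at 44.3, 48.1 and 50.5 FPKM in WT and at 85.8, 75.6 and 80.1 FPKM in nf-yc11. The lowest nf-yc11 library was far above the highest WT library. Relative to the mean, both groups spread more than those of the other called genes, with an SD of 6.49% of the mean in WT and 6.36% in nf-yc11. The mean rose 1.69-fold, from 47.6 ± 3.09 to 80.5 ± 5.12 FPKM (log2 change 0.74 ± 0.06 SE, adjusted p = 0.000165, limma), and 94.1% of tested features had a lower log2 change. The feature behind it is short. The length recovered from the values was 277 bases, beside a median of 1336 bases over the tested features, although glutamate synthases are among the largest plant enzymes. A row of that length can hold only a small piece of such a transcript, and it rests on 204 to 270 reads per WT library and 334 to 377 per nf-yc11 library. The comparison between groups uses the same piece in every library, but its FPKM may not stand for the level of the whole gene.

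Fd-GOGAT, the ferredoxin-dependent plastid enzyme, was at 29.2, 29.8 and 29.1 FPKM in WT and at 17.0, 18.1 and 17.4 FPKM in nf-yc11. The groups were tight and far apart. The fall was 1.68-fold (log2 change -0.71 ± 0.04 SE, adjusted p = 4.19e-05, limma), close in size to that of GS1;3, and 5.26% of tested features had a lower log2 change. NADH-GOGAT2, a second NADH-dependent enzyme known in rice from leaves, was the least abundant of the 10, at 2.76, 2.85 and 2.40 FPKM in WT and at 2.60, 2.38 and 2.88 FPKM in nf-yc11. The groups overlapped almost fully, and the log2 change of -0.02 ± 0.10 SE did not pass (adjusted p = 0.884, limma). With 71 to 123 reads per library, it had the largest standard error of the 10.

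NADH-GOGAT1 was 1.52, 1.62 and 1.73 times the level of Fd-GOGAT in the WT libraries and 5.06, 4.17 and 4.59 times in the nf-yc11 libraries. Its share of the summed glutamate synthase FPKM was 58.1%, 59.6% and 61.5% in WT and 81.4%, 78.7% and 79.8% in nf-yc11, a mean difference of 20.2 percentage points (exact permutation test, two-sided, p = 0.1). That of Fd-GOGAT was 36.9% ± 1.36 and 17.4% ± 1.38. As shares of reads not divided by length, the NADH-GOGAT1 difference was 15.4 percentage points. Fd-GOGAT had more reads than NADH-GOGAT1 in every library, at 1284 to 1937 against 204 to 270 in WT. In nf-yc11 the reads were 806 to 895 against 334 to 377. That NADH-GOGAT1 stands above Fd-GOGAT in FPKM thus depends on its recovered length of 277 bases, beside 3021 for Fd-GOGAT.

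GS2 and Fd-GOGAT, the plastid enzymes of green tissue, fell together, but not by the same amount: the ratio of GS2 to Fd-GOGAT was 0.828, 0.826 and 0.822 in WT and 1.08, 1.03 and 1.08 in nf-yc11. Markers of green tissue, which the maternal pericarp around the endosperm contains, moved beside them. The 12 such markers summed to 3888 to 3962 FPKM in WT and to 3260 to 3607 FPKM in nf-yc11. Of these, 7 were lower, 1 was higher and 4 were not called. Over all tested features 19.3% were lower and 29.8% higher. The median log2 change of the 12 was -0.26, beside 0.06 over all tested features, and none was at 0. The light-harvesting gene CAB1R fell from 438 ± 3.82 to 272 ± 7.14 FPKM, whereas CAB2R, at 1107 ± 12.6 FPKM in WT and 1143 ± 67.2 FPKM in nf-yc11, was not called (adjusted p = 0.430, limma). The part of green tissue in the lower GS2 and Fd-GOGAT levels was not tested.

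The asparagine synthetase genes both fell. AS2 was at 116, 116 and 119 FPKM in WT and at 84.8, 85.3 and 87.3 FPKM in nf-yc11. Both groups were tight and did not overlap. The fall was 1.36-fold, from 117 ± 1.44 to 85.8 ± 1.32 FPKM (log2 change -0.44 ± 0.03 SE, adjusted p = 6.10e-05, limma). AS1, the isoform known in rice from roots supplied with ammonium, was at 25.1, 23.8 and 24.4 FPKM in WT and at 15.7, 15.6 and 15.7 FPKM in nf-yc11. The nf-yc11 libraries were almost identical and all below the WT libraries. The fall was 1.56-fold (log2 change -0.61 ± 0.04 SE, adjusted p = 7.20e-05, limma).

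Together the asparagine synthetases stood at 141 ± 1.63 FPKM in WT and at 101 ± 1.32 FPKM in nf-yc11, and AS2 held most of the sum in both groups. The share of AS1 was 17.8%, 17.1% and 17.1% in WT and 15.6%, 15.5% and 15.2% in nf-yc11. The difference was -1.87 percentage points, small but with no overlap (exact permutation test, two-sided, p = 0.1). The ratio of AS2 to AS1 was 4.78 ± 0.131 in WT and 5.48 ± 0.0844 in nf-yc11.

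AlaAT1, whose loss is known in rice to give floury, starch-poor grains, was by far the most abundant of the 10, above 99.8% of tested features in WT. It was at 1548, 1613 and 1625 FPKM in WT and at 1214, 1258 and 1283 FPKM in nf-yc11. The groups did not overlap. The fall was 1.27-fold (log2 change -0.35 ± 0.03 SE, adjusted p = 0.000185, limma) and was measured on 19308 to 34413 reads per library.

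**Figure D3:**
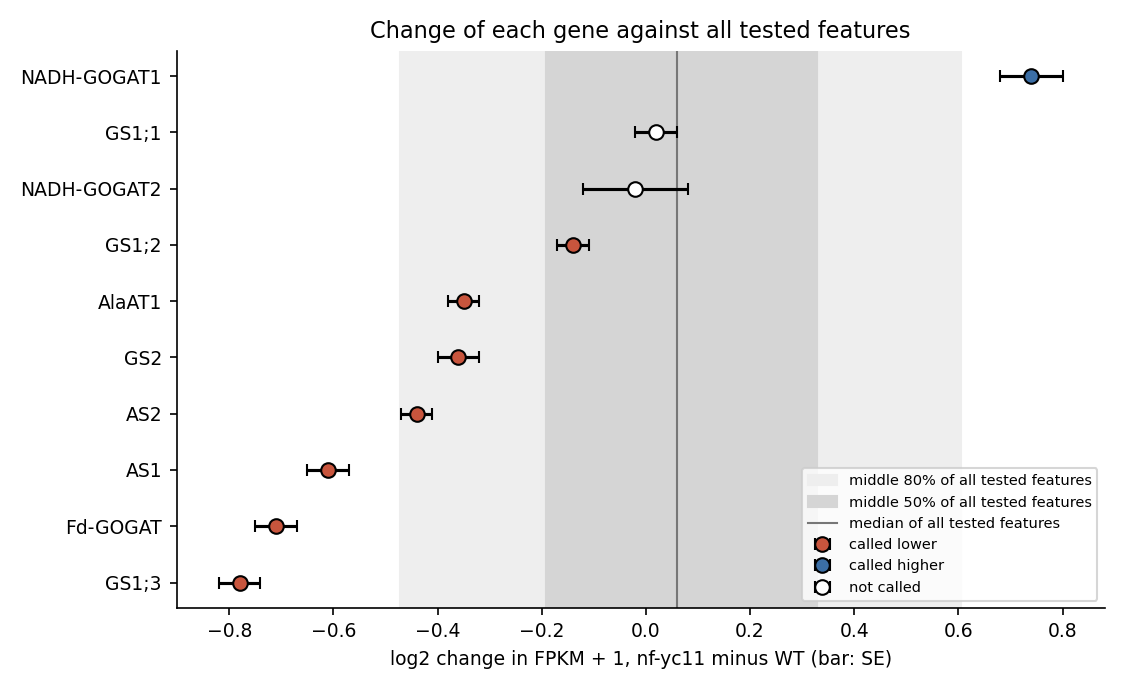
Log2 change in FPKM + 1, nf-yc11 minus WT (horizontal axis, bars are SE), of the 10 genes in order, over the middle 50% (dark grey) and middle 80% (light grey) of all tested features. GS1;3, Fd-GOGAT and AS1 lie below the 10th percentile of -0.47, NADH-GOGAT1 lies above the 90th percentile of 0.61, and the other 6 lie between them.

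The direction and call of the 8 changed genes were the same under each of 15 processing alternatives, which ranged from -0.88 to -0.75 for GS1;3, from 0.62 to 0.79 for NADH-GOGAT1 and from -0.82 to -0.69 for Fd-GOGAT on the log2 scale. For AS1 the range was -0.71 to -0.59, for AS2 -0.57 to -0.43, for GS2 -0.46 to -0.35 and for AlaAT1 -0.46 to -0.33. GS1;2 had the smallest change, with a range of -0.27 to -0.12, and came closest to losing its call, with an adjusted p of up to 0.0493 (limma with no variance trend). The ranges of GS1;3 and Fd-GOGAT lay below those of AS2, GS2 and AlaAT1 throughout.

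**Figure D4:**
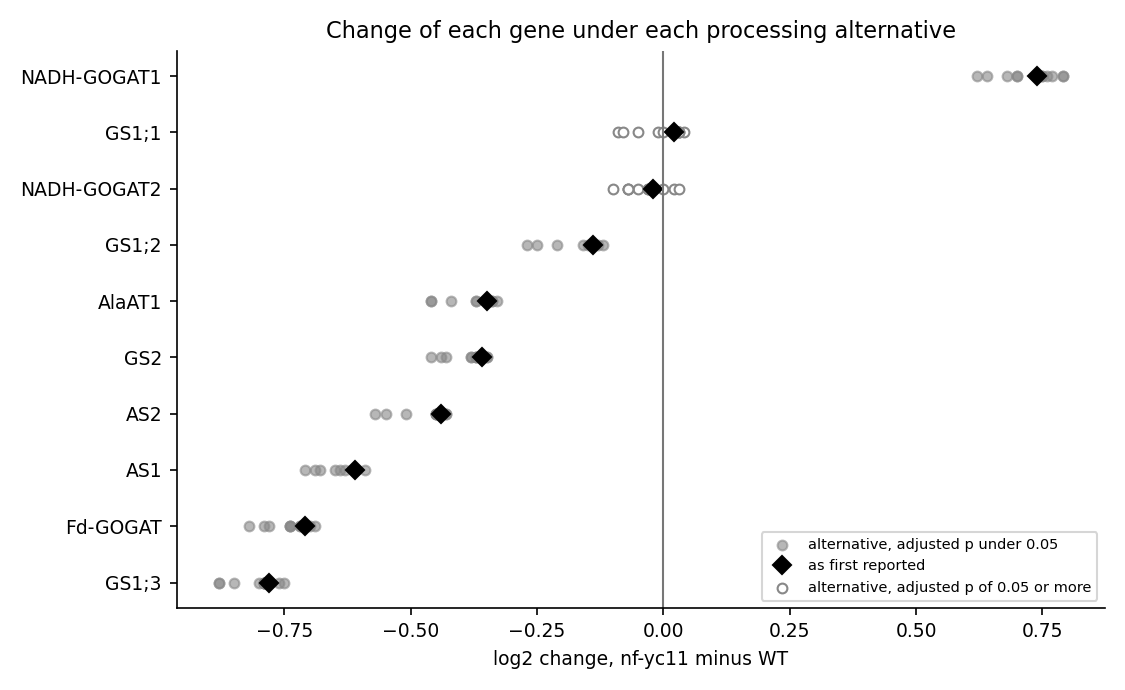
Log2 change, nf-yc11 minus WT (horizontal axis), of the 10 genes as first reported (black diamonds) and under each alternative (circles, filled where the adjusted p was under 0.05). The 7 genes called lower lie left of 0 and NADH-GOGAT1 right of it under every alternative, whereas GS1;1 and NADH-GOGAT2 lie on both sides of 0 with open circles.

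In WT the order of levels was AlaAT1, AS2, GS1;3, GS1;2, NADH-GOGAT1, GS1;1, Fd-GOGAT, AS1, GS2 and NADH-GOGAT2. The neighbours GS1;3 and GS1;2 overlapped between libraries, as did AS1 and GS2, and all other neighbours were apart. In the libraries labelled nf-yc11 the order was AlaAT1, AS2, GS1;2, NADH-GOGAT1, GS1;3, GS1;1, GS2, Fd-GOGAT, AS1 and NADH-GOGAT2. There AS2 overlapped with GS1;2 and GS1;2 with NADH-GOGAT1, whereas the other neighbours were apart. GS1;3 thus moved from rank 3 to rank 5 and NADH-GOGAT1 from rank 5 to rank 4. Levels are per length, and the ranks of NADH-GOGAT1 carry the limit given for its short feature. The recovered lengths were 2025 bases for NADH-GOGAT2, 3021 for Fd-GOGAT and 1011 for AlaAT1. Whether these or the other rows hold whole transcripts was not tested, so their levels and ranks may not stand for whole genes.

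The features with the profile most like that of GS1;3 over the 6 libraries, by the root mean square difference of log2(FPKM + 1) with each profile centred on its WT mean, were OS07G0476900 and OS10G0430900. Their differences from GS1;3 were 0.021 and 0.024 on the log2 scale. OS07G0476900 went from 15.8 ± 0.768 to 8.65 ± 0.222 FPKM and OS10G0430900 from 78.1 ± 1.39 to 45.4 ± 1.99 FPKM. For NADH-GOGAT1 they were OS12G0556900, from 7.71 ± 0.882 to 13.6 ± 0.905 FPKM, and OS09G0427100, from 0.565 ± 0.125 to 1.60 ± 0.246 FPKM, at differences of 0.033 and 0.044. OS09G0427100 was under 1 FPKM in each WT library, where the added 1 FPKM dominates the log2 value, and relative to its own level its FPKM rose more than that of NADH-GOGAT1, so the likeness is one on the log2(FPKM + 1) scale. The files pair none of these IDs with a name.

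Other genes of nitrogen and amino acid metabolism were taken from a list of 37 IDs. Of these, 24 passed the filter, 11 were lower, 6 higher and 7 not called. The median log2 change of the 24 was -0.10, beside 0.06 over all tested features. The share called was 70.8%, beside 49.1% over all features. For 11 of the 37 the gene name lies at the place the ID gives in the RefSeq table, and only these are named. The exception is OS01G0558200, not located by name, which is given by its ID below to complete a count. Of the 11, 5 passed the filter, with 4 lower and 1 not called (limma). Of the 26 not located, 19 passed the filter, with 7 lower and 6 higher. At this filter every call higher thus lies among IDs left unnamed. Over all tested features 19.3% were lower and 29.8% higher.

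Glutamate dehydrogenases release or bind ammonium at glutamate. Of the 4 on the list 3 were called lower, beside 19.3% over all tested features, and GDH3 was under the filter. The third of those called was an ID not located by name, OS01G0558200, whose place in this count rests on the ID list alone. It went from 8.84 ± 0.489 to 7.07 ± 0.261 FPKM (adjusted p = 0.00961, limma). GDH2, the more abundant, was at 61.5 ± 0.804 FPKM in WT and 57.0 ± 0.948 FPKM in nf-yc11 (log2 change -0.11 ± 0.03 SE, adjusted p = 0.0290, limma). Its call ended with no variance trend, with the replicate block and without each of the 6 libraries in turn, with adjusted p of 0.0523 to 0.0955 (limma). With the 3 other scalings it remained called and the fall was larger, at -0.18 with size factors, -0.21 with totals without the 100 most abundant features and -0.22 with quantile normalization. GDH1 went from 10.7 ± 0.390 to 8.55 ± 0.747 FPKM (log2 change -0.29 ± 0.07 SE, adjusted p = 0.0145, limma), and without WT replicate 2 its adjusted p was 0.0513. ARG1, an arginase, which splits arginine, fell from 71.7 ± 0.621 to 60.3 ± 2.92 FPKM (log2 change -0.25 ± 0.04 SE, adjusted p = 0.00318, limma).

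P5CS1, which makes the precursor of proline from glutamate, went from 70.9 ± 1.06 to 65.2 ± 1.53 FPKM (log2 change -0.12 ± 0.03 SE, adjusted p = 0.0237, limma). Its call ended with no variance trend (adjusted p = 0.0790, limma), with the replicate block (0.0554) and without WT replicate 2 (0.0783), WT replicate 3 (0.0677) or nf-yc11 replicate 2 (0.0531). With the 3 other scalings the call held and the log2 change was larger, at -0.19, -0.22 and -0.25 in the order given for GDH2. GLB, the plastid PII protein that senses carbon and nitrogen status, was at 36.1 ± 0.820 FPKM in WT and 38.3 ± 2.39 FPKM in nf-yc11, a difference that was not called (adjusted p = 0.247, limma). The other 6 were under the filter: the ammonium transporters AMT1;2 and AMT1;3 are listed at 0 in all 6 libraries, and AMT1;1 was at 0.612 ± 0.123 and 0.803 ± 0.222 FPKM. NIA1, GDH3 and P5CS2 were below 1 FPKM in every library. The groups overlapped for GDH3 but not for NIA1 (0.0580 ± 0.0712 in WT and 0.311 ± 0.0796 FPKM in nf-yc11) or P5CS2 (0.610 ± 0.0887 and 0.271 ± 0.0855 FPKM). The NIA1 values rest on 0 to 5 reads per WT library and 10 to 17 per nf-yc11 library.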

How the data were processed

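RNA sequencing values of 6 endosperm libraries (3 WT, 3 nf-yc11, grouped by title) were used. The authors deposited 1 table of FPKM values. Per the labels' protocols RNA was extracted with TRIzol, and CASAVA 1.7, HISAT2 2.0.5 and DESeq are listed in the submitters' processing notes without their roles. The counting tool, genome build and annotation were not given in the sources used here. No coordinates or sequences are therefore printed. Whole reads and lengths were recovered from the FPKM values for 36189 of 36189 features above 0, within a relative 0.0001, and the reads summed to 99.7% of the totals. A length could be a whole multiple where all 6 counts share a factor. At the median feature length of 1336 bases, 3 reads were worth 0.102 to 0.154 FPKM, a floor for counting error only.

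The test was limma 3.58.1 (R 4.3.3) on log2(FPKM + 1), with eBayes trend, features averaging 1 FPKM or more, and Benjamini-Hochberg adjustment; this scale understates changes of low genes. Shares were compared with exact permutation tests (scipy 1.17.1). The scripts were tested on simulated data. The genes, lists and tests were chosen with earlier results of these data known. Names were checked against RefSeq assembly ASM3414082v1 by symbol and relative place on the chromosome, within 5% of its length; the table holds no product names, so the planned check of these was replaced. Named were the 10 genes, located list genes and the 2 nearest profiles of GS1;3 and NADH-GOGAT1. Marker IDs (6 endosperm, 4 embryo, 1 aleurone, 12 green tissue) were written from general knowledge, of which 3, 3, 1 and 5 were located; neither NF-YC feature was. Same-numbered libraries did not deviate together (r = -0.050, 0.004 and -0.048).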

Additional observations from a re-analysis of the deposited data

How the results depend on the processing

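The alternatives were a pseudocount of 0.1, no filter or at least 5 FPKM, 3 other scalings, no variance trend, voom on the recovered reads, the replicate block and leaving out each library. Under all of these 8 of the 10 genes were called, 7 lower and 1 higher, and each of the 8 kept its direction and call; the replicate block also gave 8. At 5 FPKM, NADH-GOGAT2 was not tested. Signs turned only for genes that were not called. GS1;1 was at -0.05 with size factors, -0.09 with quantile normalization, -0.08 with totals without the 100 most abundant features, and -0.01 to 0.04 with 1 library left out. NADH-GOGAT2 was at -0.07 to 0.03 with 1 library left out. GLB was at -0.03 with quantile normalization and -0.02 with the reduced totals. Of the named list genes, 4 were called at first, 2 with no variance trend, 2 with the replicate block and 1 to 3 without 1 library. With no filter 6 were called, 5 lower and 1 higher. The cause of these shifts was not tested. Over all 37 IDs the count ran from 12 to 19. With 1 library left out, the share difference ran from -10.3 to -9.46 points for GS1;3, from 19.4 to 21.1 for NADH-GOGAT1 and from -1.99 to -1.64 for AS1. Paired by number, sign flips gave p = 0.25 for each, the smallest possible (exact test). Over all features, calls higher in nf-yc11 were 60.7% of calls as first reported, and 46.7% to 51.4% with the other scalings. Depth limits NADH-GOGAT2, at 71 to 123 reads, and the genes under 1 FPKM.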
